A study of Mus musculus with 12 samples.

Results

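Adipocyte formation and fat storage draw on a set of genes that make, take up, bind, store and release fatty acids. A set of 37 such mouse genes, chosen by name, was followed here in cultured intestinal stromal fibroblasts with and without the cytokine TGFB1. The choice was made with earlier results of these data known. All 37 were among the 25203 gene symbols of the deposited table. Of these, 30 reached 1 FPKM (fragments mapped to a gene, scaled by its length and by library size) in at least 3 of the 12 libraries and were tested, as were 12641 genes in all.

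RNA was read in 12 libraries from primary cultures of cells labelled Pdgfra-lo-H2B-GFP, a name built from a reporter of the fibroblast receptor gene Pdgfra, 3 libraries in each of 4 groups. The TGFB1 group received exogenous TGFB1 and the Vehicle group received vehicle, and neither is labelled knockout. The Tgfbr2KO_TGFB1 group (TGFB1_KO in the labels) received TGFB1 and the Tgfbr2KO_Vehicle group (Vehicle_Tgfbr2KO in the labels) received vehicle, both in cells labelled as knockout for Tgfbr2, which encodes the type II receptor that binds TGFB1. The stated question was what TGFB1 does to stromal fibroblasts, with the knockout cells as a measure of activity outside the canonical receptor. The labels used here give no dose, exposure time, animal age or deleted part of Tgfbr2, and do not say whether a group's 3 libraries came from separate animals. The p-values therefore cover only how these libraries vary, which may be technical.

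In textbook adipogenesis, the transcription factors C/EBPβ and C/EBPδ act early and switch on PPARγ and C/EBPα. These then turn on genes for fatty acid uptake and storage such as Lpl, Cd36 and Fabp4, and those of the adipocyte lipid droplet and adipokines such as Plin1, Cidec, Adipoq and Lep. TGFB1 is known from cultured preadipocytes as an inhibitor of this programme. Fibroblasts that are not adipocytes also make membrane fatty acids and can hold small lipid droplets, coated mainly by the perilipins encoded by Plin2 and Plin3.

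Summed levels of 12 fibroblast markers ranged over 13364 to 14688 FPKM in TGFB1, 7414 to 12583 in Vehicle, 5090 to 9828 in Tgfbr2KO_TGFB1 and 4145 to 5802 in Tgfbr2KO_Vehicle. The sums follow the most abundant markers, such as Col1a1, which averaged 4046, 2864, 1705 and 1190 FPKM in these groups in that order. With TGFB1, 5 of these 12 passed an adjusted p of 0.05 (limma), against 31.9% of all tested genes. Of them, 3 were higher (Fn1, Postn and Vim, of which Postn lost its call without replicate 2 of every group) and 2 lower. The lower ones were Pdgfra, at 13.8, 19.7 and 12.1 FPKM in TGFB1 and 137, 125 and 165 FPKM in Vehicle (log2 change -3.16, SE 0.38, adjusted p = 0.000197), and S100a4, at 16.5, 27.2 and 18.9 FPKM in TGFB1 and 109.9, 225 and 126 FPKM in Vehicle (log2 change -2.78, SE 0.25, adjusted p = 3.76e-05). Tgfbr2 itself was at 31.6, 38.0 and 62.4 FPKM in Tgfbr2KO_TGFB1 and 27.0, 35.2 and 41.9 FPKM in Tgfbr2KO_Vehicle, against 56.5, 70.6 and 74.6 FPKM in TGFB1 and 48.0, 38.2 and 78.8 FPKM in Vehicle. Those ranges overlap, and a level over the whole gene does not check a deletion whose place is unknown. Relative depth, read from the step size of low values with Vehicle replicate 1 as 1, was 0.745 to 0.799 in TGFB1, 0.962 to 1.05 in Vehicle, 0.804 to 1.25 in Tgfbr2KO_TGFB1 and 0.862 to 1.02 in Tgfbr2KO_Vehicle.

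With TGFB1 in cells not labelled knockout, most of the regulators and the fatty acid uptake and binding genes fell, while the droplet coat gene Plin2 and the lipase gene Mgll rose. Of the 30 tested genes, 16 passed an adjusted p of 0.05 (limma, Benjamini-Hochberg over 12641 genes), 13 lower and 3 higher. Among all tested genes 31.9% were called, 14.6% lower and 17.3% higher. The median log2 change of the 30 was -0.32, against 0.02 over all tested genes. The set was chosen with earlier results of these data known, so these counts and medians are no independent test of it. The FPKM of the 3 TGFB1 libraries and the 3 Vehicle libraries did not overlap in 19 of the 30 (3 above and 16 below), and in 47.9% of all tested genes (26.1% above and 21.8% below). By pairs of 1 replicate number, 6 were higher in all 3 pairs and 19 lower in all 3 (35.5% and 30.7% of all genes). With the replicate number as a block, 19 were called, 4 higher and 15 lower (of all genes 41.5%, 22.7% higher and 18.7% lower), the additional 3 being Agpat2, Lipe and Scd2. With that block within each genotype, 21 were called, 5 higher and 16 lower (of all genes 40.4%, 21.6% higher and 18.7% lower), with Cd36 and Acaca called as well. Without replicate 2 of every group the count was 9, and the calls of Pparg, Klf15, Fabp4, Fabp5, Elovl5, Fads2, Dgat1 and Mgll were lost while that of Cd36 was gained. Leaving out single libraries gave 13 to 17. The share of all tested genes called was not taken for fits with libraries left out. Whether the set loses more calls there than other genes cannot be told.

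**Figure D1:**
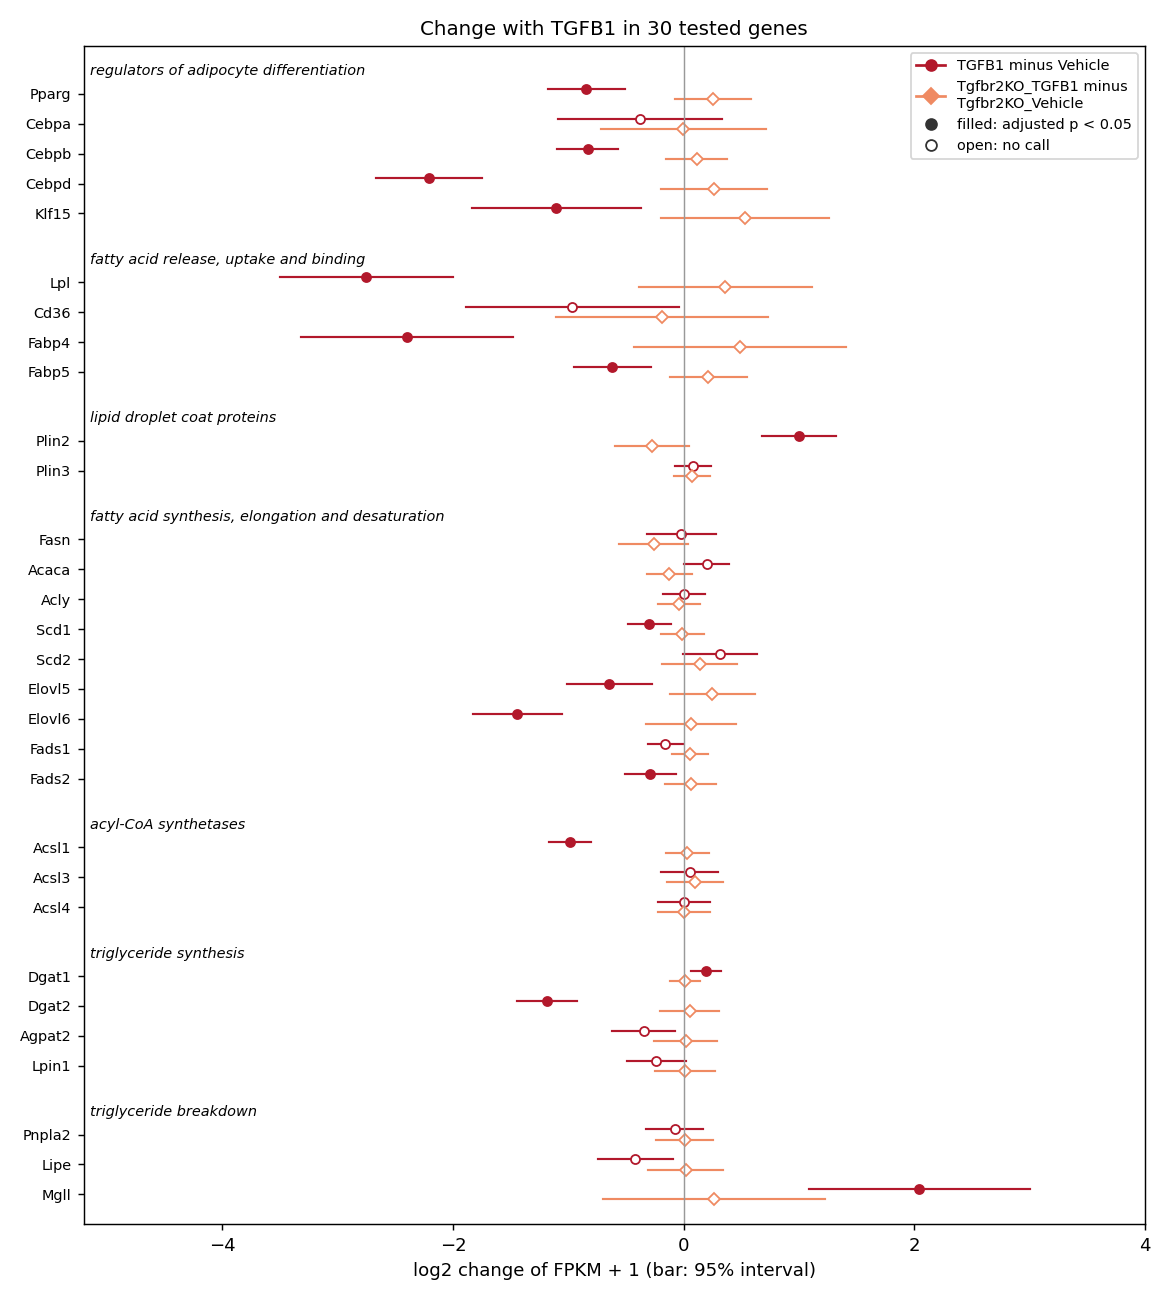
Change with TGFB1 in each of the 30 tested genes, as the difference of log2(FPKM + 1) with its 95% interval, for TGFB1 minus Vehicle and for Tgfbr2KO_TGFB1 minus Tgfbr2KO_Vehicle, 3 libraries a group. Filled points passed an adjusted p of 0.05. Lpl, Fabp4 and Cebpd lie farthest to the left at -2.75, -2.39 and -2.21, Mgll and Plin2 farthest to the right at 2.05 and 1.00, and no point of the knockout comparison is filled.

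Of the regulators of adipocyte differentiation, 4 of 5 tested genes fell with TGFB1 (14.6% of all tested genes were called lower). Pparg, which encodes the nuclear receptor PPARγ, was at 0.0574, 0.0308 and 0.0358 FPKM in TGFB1 and 0.619, 0.919 and 1.10 FPKM in Vehicle. Every TGFB1 library was below every Vehicle library, and the group mean was 21.3-fold lower (log2 change -0.84, SE 0.15, adjusted p = 0.00204). These levels are low in both groups, the TGFB1 libraries were the shallower ones, and without replicate 2 of every group the call was lost (adjusted p = 0.0603). On a scale of log2(FPKM + 1) the change of a gene this low is understated.

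Cebpd, encoding C/EBPδ, had 18.8, 23.8 and 32.2 FPKM in TGFB1 and 114, 116 and 119 FPKM in Vehicle, 4.66-fold lower on average (log2 change -2.21, SE 0.21, adjusted p = 4.40e-05). The 3 Vehicle libraries lay close together, and the highest TGFB1 library was far below them. Cebpb, encoding C/EBPβ, had 120.7, 138 and 162 FPKM in TGFB1 and 246, 241 and 259 FPKM in Vehicle, also without overlap (log2 change -0.83, SE 0.12, adjusted p = 0.000624). Cebpb remained the most abundant of the regulators per length in the TGFB1 group, at 140.0 ± 20.6 FPKM (SD, n = 3).

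Klf15 encodes a Krüppel-like factor that promotes adipocyte differentiation in mouse preadipocytes. It was at 0.481, 0.686 and 0.441 FPKM in TGFB1 and 2.38, 1.12 and 3.98 FPKM in Vehicle (log2 change -1.10, SE 0.33, adjusted p = 0.0274), and the call was lost without Vehicle replicate 1 or 3 or TGFB1 replicate 1 or 3 (adjusted p up to 0.0940). Cebpa, encoding C/EBPα, was at 2.95, 0.844 and 2.63 FPKM in TGFB1 and 3.11, 1.74 and 4.15 FPKM in Vehicle. The ranges overlapped and the difference did not pass (-0.38, 95% interval -1.09 to 0.34, adjusted p = 0.411), although each TGFB1 library was below the Vehicle library of its own number. Zfp423, which encodes a zinc finger protein of preadipocyte commitment, stayed under the level needed for a test.

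**Figure D2:**
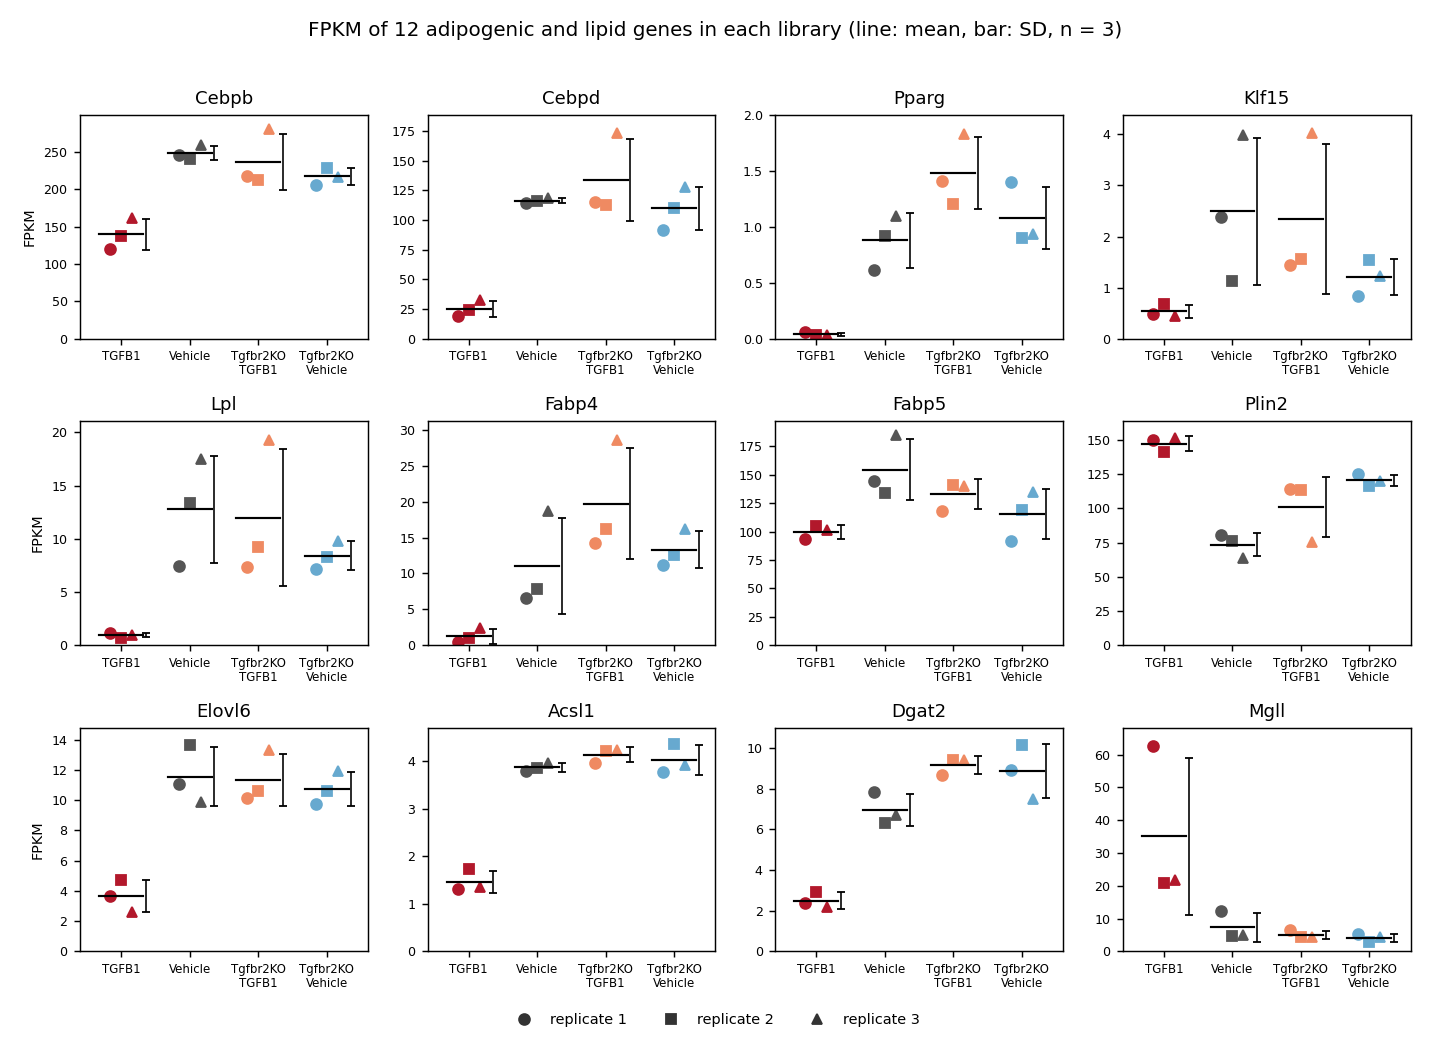
FPKM of selected genes in each of the 12 libraries, with the replicate number as the symbol, the group mean as a line and the SD as a bar (n = 3). The TGFB1 libraries lie below the Vehicle libraries for Cebpd (25.0 against 116 FPKM on average) and Lpl (0.952 against 12.8 FPKM) and above them for Plin2 (148 against 73.6 FPKM), while the Tgfbr2KO groups overlap for Cebpd and Lpl.

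By gene symbol, 27 of the 37 genes were found in a RefSeq promoter table (GRCm38.p6, a newer build than the mm9 of the submitters' processing notes, so its coordinates are not those of the reads). Shown are the 250 bases before 1 start of a regulator that fell, of a fatty acid activating gene that fell and of the droplet coat gene that rose. Pparg is at chr6:115421816-115422065 on the plus strand, the most downstream of its 3 starts in the table. Acsl1 is at chr8:46490716-46490965 on the plus strand, the second of its starts, and Plin2 at chr4:86670060-86670309 on the minus strand. Capitals mark matches on either strand to 5 motifs: C/EBP-type TTNCNNAA, sterol regulatory element-type TCACNCCAC, the PPAR direct repeat-type (a pair of hexamers spaced by 1 base), SMAD box-type CAGACA and AP-1-type TGANTCA.
Pparg: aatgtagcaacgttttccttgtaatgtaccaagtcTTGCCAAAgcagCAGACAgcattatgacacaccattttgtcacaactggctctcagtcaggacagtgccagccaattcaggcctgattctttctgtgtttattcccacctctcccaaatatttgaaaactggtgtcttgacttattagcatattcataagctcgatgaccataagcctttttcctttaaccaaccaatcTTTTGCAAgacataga
Acsl1: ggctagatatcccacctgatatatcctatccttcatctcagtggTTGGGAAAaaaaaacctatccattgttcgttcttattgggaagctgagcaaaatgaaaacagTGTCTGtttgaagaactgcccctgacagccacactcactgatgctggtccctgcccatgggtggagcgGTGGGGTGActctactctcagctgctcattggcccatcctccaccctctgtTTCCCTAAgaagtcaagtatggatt
Plin2: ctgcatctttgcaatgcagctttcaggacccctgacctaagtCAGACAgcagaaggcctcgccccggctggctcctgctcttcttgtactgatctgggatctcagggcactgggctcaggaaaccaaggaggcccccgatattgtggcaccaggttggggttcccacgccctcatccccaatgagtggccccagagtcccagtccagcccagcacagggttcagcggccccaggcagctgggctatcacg
The other 2 Pparg windows and the other Acsl1 window in the table hold 0 matches to the 5 motifs. The Pparg window shown holds 2 C/EBP-type matches and 1 SMAD box-type match. The Acsl1 window shown holds 2 C/EBP-type, 1 SMAD box-type and 1 sterol regulatory element-type match, and the Plin2 window 1 SMAD box-type match. No 2 of these matches overlap. Over the 34 windows of these genes, 11 held a C/EBP-type match, 6 a SMAD box-type match, 1 a sterol regulatory element-type match, 1 an AP-1-type match and 0 a PPAR direct repeat-type match. Of all 32851 promoter windows of that length, 36.8% held the C/EBP-type, 17.1% the SMAD box-type, 1.05% the sterol regulatory element-type, 6.75% the AP-1-type and 0.0335% the PPAR direct repeat-type letters. A match is a description of letters and not a site of binding.

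Among the genes of fatty acid release, uptake and binding, 3 of 4 fell with TGFB1 (14.6% of all tested genes were called lower). Lpl encodes lipoprotein lipase, which frees fatty acids from circulating triglyceride. It was at 1.16, 0.708 and 0.993 FPKM in TGFB1 and 7.44, 13.3 and 17.5 FPKM in Vehicle, 13.4-fold lower on average and without overlap (log2 change -2.75, SE 0.34, adjusted p = 0.000227). Fabp4, the fatty acid binding protein that is abundant in adipocytes and also made by macrophages and endothelium, was at 0.376, 0.960 and 2.39 FPKM in TGFB1 and 6.58, 7.86 and 18.8 FPKM in Vehicle (log2 change -2.39, SE 0.41, adjusted p = 0.00179). All 3 TGFB1 libraries lay below all 3 Vehicle libraries, with a mean 8.92-fold lower, and without replicate 2 of every group the adjusted p was 0.0580.

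Fabp5, the more widely expressed member of that family, was at 93.2, 105 and 101 FPKM in TGFB1 and 145, 134 and 185 FPKM in Vehicle (log2 change -0.62, SE 0.15, adjusted p = 0.0106), and without replicate 2 of every group the call was lost (adjusted p = 0.0775). Per length it was far more abundant than Fabp4 in all 4 groups, at 99.7 against 1.24 FPKM on average in TGFB1 and 155 against 11.1 FPKM in Vehicle. Cd36, which encodes a fatty acid transporter, was at 0.221, 0 and 0.188 FPKM in TGFB1 and 1.87, 0.0910 and 2.44 FPKM in Vehicle. The second Vehicle library was as low as the TGFB1 libraries, so the groups overlapped, and the difference did not pass (log2 change -0.96, SE 0.41, adjusted p = 0.104), with a call without Vehicle replicate 2 (adjusted p = 0.00947), without replicate 2 of every group (adjusted p = 0.0498) or with the number as a block within each genotype.

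Macrophages and endothelial cells also express Cd36 and Fabp4, and their markers differed between replicate numbers. Summed over 12 macrophage markers, each at 1 FPKM or more in at least 1 library, the level was 319, 16.7 and 440 FPKM in TGFB1, against 524, 41.0 and 791 FPKM in Vehicle. The sum was 127, 313 and 221 FPKM in Tgfbr2KO_TGFB1, against 154, 417 and 321 FPKM in Tgfbr2KO_Vehicle. Replicate 2 was thus lowest in both groups not labelled knockout and highest in both knockout groups. Lyz2 was the largest part of these sums, at 214, 8.28 and 250 FPKM in TGFB1 and 372, 24.8 and 547 FPKM in Vehicle. Csf1r averaged 5.59 FPKM in TGFB1 and 5.15 FPKM in Vehicle, and Cd68 3.84 FPKM in TGFB1 and 10.1 FPKM in Vehicle. The sums thus do not stand for every marker.

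With TGFB1, 1 of the 12 macrophage markers was called, against 31.9% of all tested genes. It was Cd14, which was lower (log2 change -1.04, SE 0.32, adjusted p = 0.0324). That call was lost without any 1 of Vehicle replicates 1 and 3 and the 3 TGFB1 libraries (adjusted p up to 0.112). Other markers had wide errors, with log2 changes of -1.13 (SE 1.35) for Lyz2, -0.34 (SE 1.25) for C1qa, -1.46 (SE 0.56) for Mrc1 and 0.01 (SE 0.38) for Ptprc. Sizeable changes in them could therefore go uncalled. Summed over 8 endothelial markers the level was 5.92, 0.582 and 18.9 FPKM in TGFB1, against 6.55, 0.707 and 18.7 FPKM in Vehicle. Of 5 tested markers 0 were called, with SEs from 0.49 for Emcn to 0.74 for Cdh5, also wide. Cd36 and Cebpa were also lowest in replicate 2 of TGFB1 and of Vehicle. In replicate 2, where these sums were lowest, Fabp4 was at 0.960 FPKM in TGFB1 and 7.86 FPKM in Vehicle, and Lpl at 0.708 FPKM in TGFB1 and 13.3 FPKM in Vehicle.

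Smooth muscle and pericyte markers differed with TGFB1 as well. Of 10, all tested, 5 were called higher and 1 lower (31.9% of all tested genes were called). Their summed level ranged over 8305 to 9380 FPKM in TGFB1 and 5192 to 6431 FPKM in Vehicle, and over 4147 to 6443 FPKM in Tgfbr2KO_TGFB1 and 5125 to 5592 FPKM in Tgfbr2KO_Vehicle. Cspg4 had the largest of these changes (log2 change 1.86, SE 0.40, adjusted p = 0.00604), followed by Mcam (log2 change 1.11, SE 0.16, adjusted p = 0.000689) and Tagln (log2 change 0.82, SE 0.15, adjusted p = 0.00238). Actg2 and Cnn1 were the other higher ones (log2 change 0.54 and 0.42) and Notch3 the lower one (-0.74). The calls of these last 3 were each lost without single TGFB1 or Vehicle libraries (adjusted p up to 0.105, 0.113 and 0.0991). Without replicate 2 of every group, only Mcam of the 6 kept its call. In bulk RNA, fewer cells of a type and less RNA per cell cannot be told apart, and the part of these cells in the results was not tested.

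**Figure D3:**
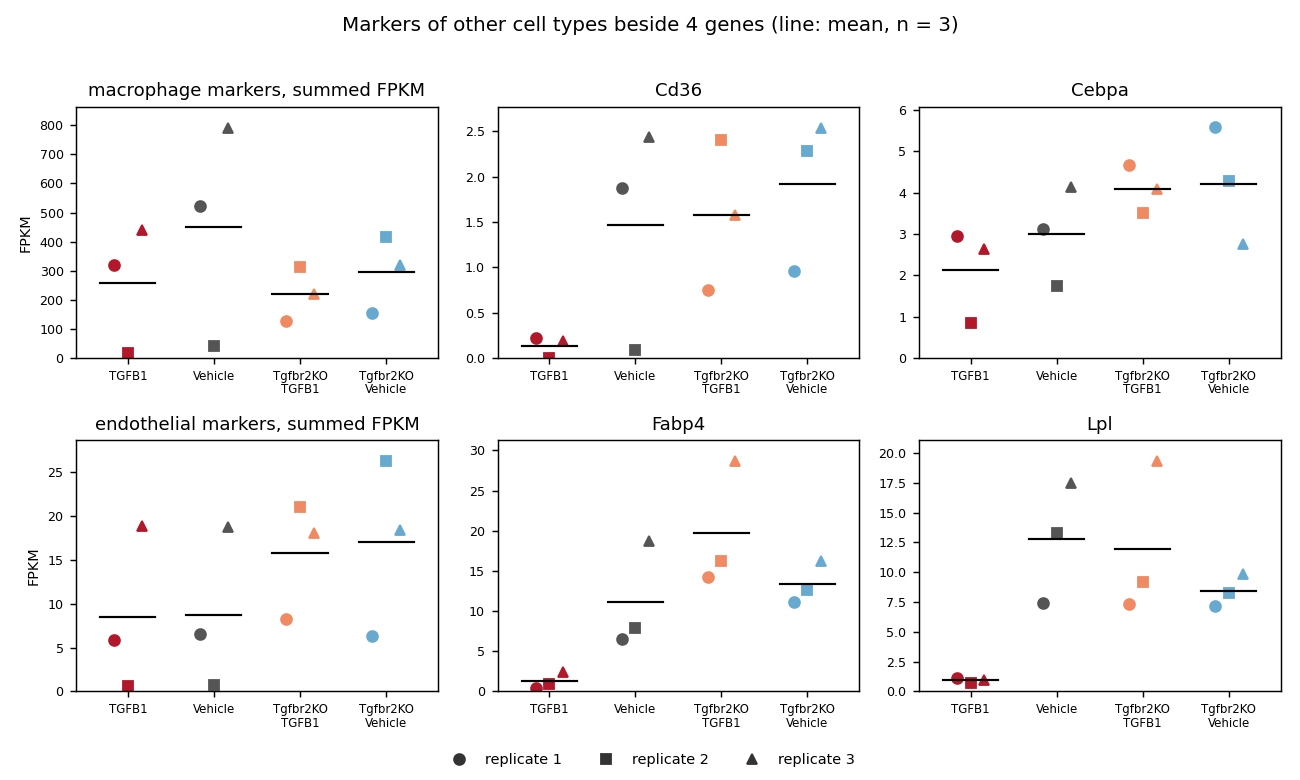
Summed FPKM of macrophage and endothelial markers beside Cd36, Cebpa, Fabp4 and Lpl in each library, with the replicate number as the symbol and the group mean as a line (n = 3). The macrophage sum in replicate 2 is 16.7 FPKM in TGFB1 and 41.0 FPKM in Vehicle, the lowest of its group in both, and Lpl in these libraries is at 0.708 and 13.3 FPKM.

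Genes that mark mature adipocytes were at or near 0 in all groups. The adipokine genes Adipoq and Lep, the droplet coat genes Plin1 and Plin4, Cidec, which encodes a droplet fusion protein, the glycerol phosphate enzyme gene Gpd1 and Zfp423 are the 7 genes that were not tested. Their highest value in any library was 0.293 FPKM, and Lep was listed at 0 in all 12. Summed over 8 mature adipocyte markers, the level was at most 0.157 FPKM in TGFB1, 0.246 in Vehicle, 0.149 in Tgfbr2KO_TGFB1 and 0.634 in Tgfbr2KO_Vehicle. Of the 30 that were tested, 24 were at 1 FPKM or more in all 12 libraries. The other 6 (Pparg, Cebpa, Klf15, Lpl, Cd36 and Fabp4) were not, and Pparg, Klf15 and Cd36 reached that level in 0 TGFB1 libraries, so their passage through the filter rested on other groups.

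Of the droplet coat genes, 2 were measurable. Plin2, whose protein coats small droplets in most cell types, was at 150.1, 141 and 151 FPKM in TGFB1 and 80.9, 75.9 and 64.0 FPKM in Vehicle. The 3 TGFB1 libraries were all above the 3 Vehicle libraries, 2.01-fold higher on average (log2 change 1.00, SE 0.14, adjusted p = 0.000597), and this call held in all alternatives run. Plin3, which coats nascent droplets, averaged 33.1 ± 1.21 FPKM in TGFB1 and 31.3 ± 1.87 FPKM in Vehicle (SD, n = 3 each), with a change of 0.08 (95% interval -0.08 to 0.23).

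Of the 9 genes of fatty acid synthesis, elongation and desaturation, 4 were called, all lower (44.4% called, against 31.9% of all tested genes, of which 14.6% were lower). The enzymes that make the carbon chain did not pass without a block: Fasn, fatty acid synthase, was at 51.1, 56.3 and 45.9 FPKM in TGFB1 and 54.6, 60.5 and 41.8 FPKM in Vehicle (-0.02, 95% interval -0.32 to 0.28). Acaca, acetyl-CoA carboxylase, averaged 13.0 ± 1.44 FPKM in TGFB1 and 11.2 ± 1.02 FPKM in Vehicle (0.20, interval 0.01 to 0.40). It was higher in all 3 TGFB1 libraries than in the Vehicle library of the same number, and with the number as a block within each genotype it was called higher (adjusted p = 0.0279). Acly, ATP citrate lyase, averaged 69.3 ± 7.52 FPKM in TGFB1 and 68.8 ± 2.63 FPKM in Vehicle (0.00, interval -0.18 to 0.19). The sign of the Acly change turned with upper-quartile scaling (-0.04).

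Both elongases fell. Elovl6, which extends palmitate to stearate, was at 3.67, 4.74 and 2.59 FPKM in TGFB1 and 11.1, 13.7 and 9.89 FPKM in Vehicle, 3.15-fold lower and without overlap (log2 change -1.44, SE 0.17, adjusted p = 0.000208). Elovl5, which extends polyunsaturated chains, was at 23.2, 24.7 and 24.1 FPKM in TGFB1 and 33.6, 36.1 and 45.7 FPKM in Vehicle (log2 change -0.65, SE 0.17, adjusted p = 0.0139), with adjusted p = 0.137 without replicate 2 of every group.

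The desaturases moved less. Scd1, a stearoyl-CoA desaturase, was at 23.7, 29.0 and 24.1 FPKM in TGFB1 and 31.7, 32.0 and 30.9 FPKM in Vehicle (log2 change -0.30, SE 0.08, adjusted p = 0.0226), a call lost without Vehicle replicate 1 or 2 or TGFB1 replicate 1 or 3 (adjusted p up to 0.0884). Fads2, a delta-6 desaturase, averaged 53.0 ± 7.07 FPKM in TGFB1 and 64.5 ± 2.48 FPKM in Vehicle (SD, n = 3 each, log2 change -0.29, SE 0.10, adjusted p = 0.0479). Its call was lost when any of 9 single libraries was left out, all but TGFB1 replicate 2, Tgfbr2KO_Vehicle replicate 1 and Tgfbr2KO_TGFB1 replicate 3, and its log2 change was -0.18 without TGFB1 replicate 1. With no filter on low values, without the variance trend or with only these 2 groups fitted it was also not called. Fads1, a delta-5 desaturase, averaged 48.7 ± 5.05 FPKM in TGFB1 and 54.3 ± 1.60 FPKM in Vehicle (-0.16, adjusted p = 0.109), with a call (lower) with upper-quartile scaling (adjusted p = 0.0419) or without TGFB1 replicate 2 (adjusted p = 0.0137).

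Scd2, the desaturase with the highest level per length of the 4 in every group, was at 181, 236 and 216 FPKM in TGFB1 and 162, 160.1 and 183 FPKM in Vehicle. It was higher in each TGFB1 library than in the Vehicle library of its number, but the groups overlapped (log2 change 0.32, SE 0.15, adjusted p = 0.126), and it passed with the number as a block (adjusted p = 0.0214). Scd1 and Scd2 are close in sequence, and how the authors' counting split reads between them is not stated.

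Of 3 genes for acyl-CoA synthetases, which activate fatty acids for further use, 1 fell (33.3% called, against 31.9% of all tested genes). Acsl1, the form that serves triglyceride synthesis and oxidation, was at 1.31, 1.73 and 1.36 FPKM in TGFB1 and 3.79, 3.86 and 3.97 FPKM in Vehicle, 2.64-fold lower (log2 change -0.99, SE 0.08, adjusted p = 2.17e-05). The spread within both groups was small beside the gap between them. Acsl3, a droplet-associated form, differed by 0.05 (95% interval -0.19 to 0.30) at 8.49 ± 1.042 FPKM in TGFB1 and 8.13 ± 1.01 FPKM in Vehicle. Acsl4, which prefers arachidonate, had 24.0, 26.3 and 23.6 FPKM in TGFB1 and 26.6, 24.9 and 22.5 FPKM in Vehicle (0.00, interval -0.23 to 0.23), and the sign of that change turned with upper-quartile scaling (-0.05).

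The 2 enzymes that complete triglyceride synthesis went opposite ways. Dgat2 was at 2.39, 2.94 and 2.16 FPKM in TGFB1 and 7.84, 6.32 and 6.70 FPKM in Vehicle, 2.78-fold lower and without overlap (log2 change -1.19, SE 0.12, adjusted p = 5.49e-05). Dgat1 was at 15.1, 16.1 and 16.8 FPKM in TGFB1 and 13.1, 14.1 and 14.5 FPKM in Vehicle, a change of 0.19 (SE 0.06, adjusted p = 0.0286). That small rise lost its call with upper-quartile scaling and without any 1 of Vehicle replicates 1 and 2 and TGFB1 replicates 2 and 3 (adjusted p up to 0.106).

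Agpat2, which adds the second acyl chain, was at 10.6, 7.69 and 10.4 FPKM in TGFB1 and 13.3, 10.9 and 12.8 FPKM in Vehicle. It was lower in all 3 TGFB1 libraries than in the Vehicle libraries and just missed the threshold (log2 change -0.35, SE 0.12, adjusted p = 0.0542, and adjusted p = 0.00210 with the number as a block). It was also called without Vehicle replicate 2 or TGFB1 replicate 1, with upper-quartile scaling and with a stricter filter (adjusted p from 0.0397 to 0.0488). Lpin1, a phosphatidate phosphatase, averaged 2.24 ± 0.148 FPKM in TGFB1 and 2.82 ± 0.326 FPKM in Vehicle (-0.24, adjusted p = 0.151).

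Of the 3 lipases that break triglyceride down in sequence, the last one rose (33.3% called, against 31.9% of all tested genes). Mgll, monoacylglycerol lipase, which also degrades the endocannabinoid 2-arachidonoylglycerol, was at 62.6, 20.8 and 21.9 FPKM in TGFB1 and 12.3, 4.74 and 4.91 FPKM in Vehicle. Replicate 1 was the highest of its group in both, all TGFB1 libraries were above all Vehicle libraries, and the mean was 4.81-fold higher (log2 change 2.05, SE 0.43, adjusted p = 0.00534). Without replicate 2 of every group the adjusted p was 0.0669. Lipe, hormone-sensitive lipase, was at 1.25, 1.27 and 1.85 FPKM in TGFB1 and 1.92, 2.17 and 2.76 FPKM in Vehicle (log2 change -0.42, SE 0.15, adjusted p = 0.0515, and adjusted p = 0.00584 with the number as a block). Lipe was also called without Vehicle replicate 1, TGFB1 replicate 3 or Tgfbr2KO_TGFB1 replicate 3, and under 4 other settings (adjusted p from 0.0321 to 0.0489). Pnpla2, adipose triglyceride lipase, averaged 10.5 ± 1.89 FPKM in TGFB1 and 11.0 ± 0.228 FPKM in Vehicle (-0.08, 95% interval -0.32 to 0.17).

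In the cells labelled Tgfbr2 knockout, no gene of the set passed with TGFB1. The count was 0 of 30, with 0 at an unadjusted p of 0.05, and 0% of all 12641 tested genes were called while 5.92% had an unadjusted p under 0.05. Log2 changes of the 30 ran over -0.27 to 0.53, and the FPKM ranges of the 2 knockout groups did not overlap in 3 of 30 genes (11.8% of all genes). By pairs of 1 replicate number, 12 of 30 genes were higher in all 3 pairs (21.9% of all genes) and 4 were lower in all 3 (19.5% of all genes). The 12 are Pparg, Cebpd, Klf15, Lpl, Fabp4, Fabp5, Elovl5, Scd2, Fads1, Fads2, Acsl3 and Mgll. Scd2 and Mgll were also higher in all 3 pairs in the cells not labelled knockout, where Acsl3 was mixed and the rest were lower in all 3. The 4 are Plin2, Fasn, Acaca and Acly. The block within each genotype gave 0 calls. Cebpd was at 115, 112 and 174 FPKM in Tgfbr2KO_TGFB1 and 91.7, 109.7 and 128 FPKM in Tgfbr2KO_Vehicle (0.27, 95% interval -0.19 to 0.73). Lpl was at 7.36, 9.21 and 19.3 FPKM in Tgfbr2KO_TGFB1 and 7.15, 8.24 and 9.82 FPKM in Tgfbr2KO_Vehicle (0.36, interval -0.38 to 1.11), and both groups overlapped for both genes.

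The 3 without overlap were Plin2, Fasn and Acaca, all below (5.23% of all genes were below). Plin2 was at 114, 113 and 75.7 FPKM in Tgfbr2KO_TGFB1 and 125, 117 and 120.2 FPKM in Tgfbr2KO_Vehicle (-0.27, interval -0.59 to 0.04), so 2 of the TGFB1-treated libraries lay just under the vehicle ones and the third well under. Pparg was at 1.41, 1.21 and 1.83 FPKM in Tgfbr2KO_TGFB1 and 1.398, 0.904 and 0.939 FPKM in Tgfbr2KO_Vehicle (0.26, interval -0.08 to 0.59). Dgat2 and Acsl1 differed by 0.05 (interval -0.21 to 0.31) and 0.03 (interval -0.15 to 0.22), against -1.19 and -0.99 in the cells not labelled knockout. For Mgll and Klf15 the intervals were wide, -0.70 to 1.22 and -0.20 to 1.26.

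**Figure D4:**
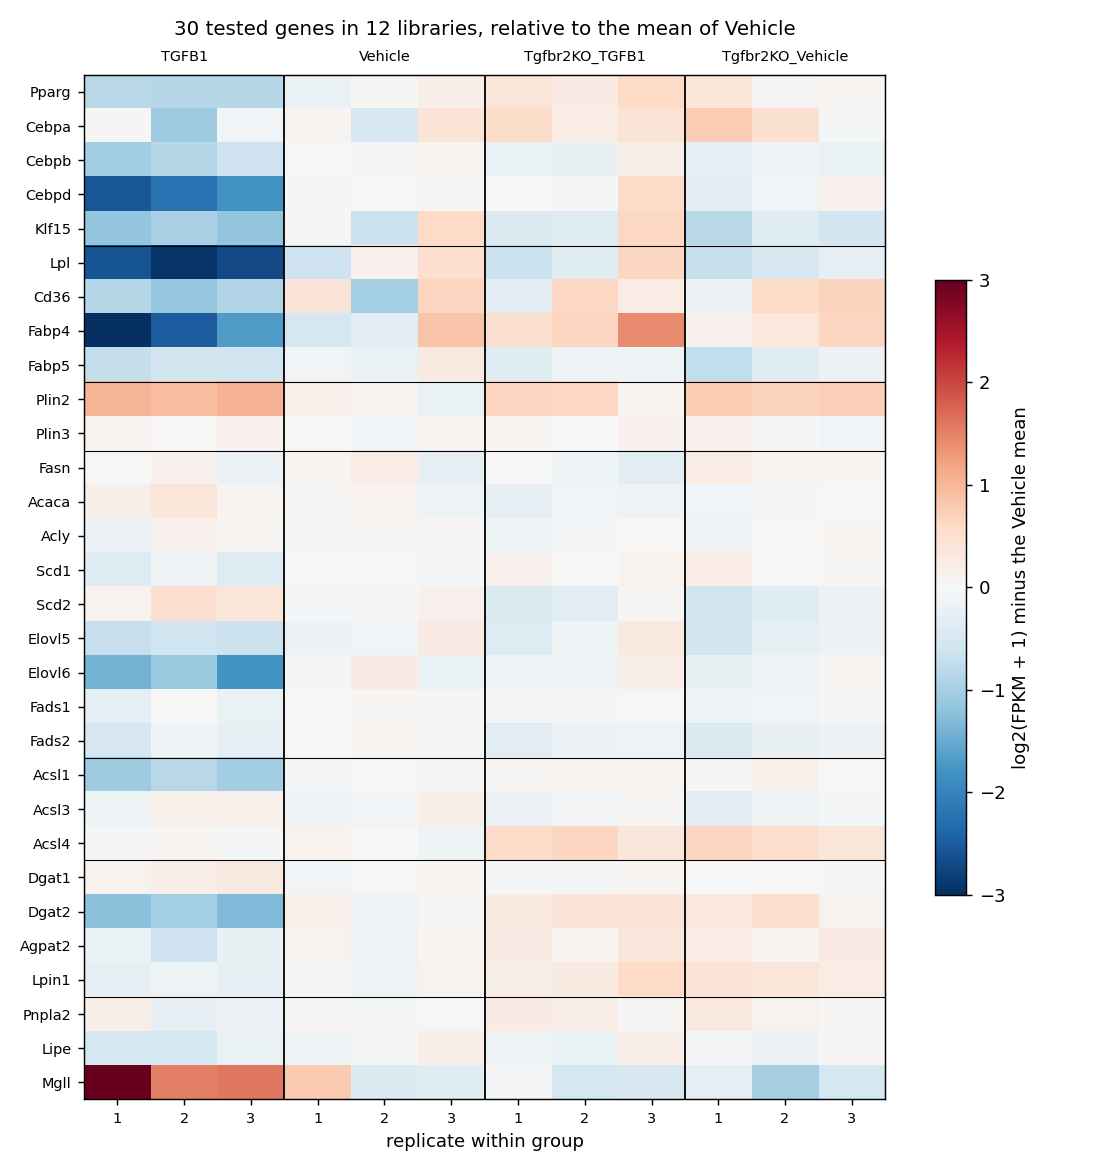
Levels of the 30 tested genes in the 12 libraries as log2(FPKM + 1) minus the mean of the Vehicle group, columns in the order TGFB1, Vehicle, Tgfbr2KO_TGFB1 and Tgfbr2KO_Vehicle with replicates 1, 2 and 3 in each, and colours limited to 3 in either direction. In the TGFB1 columns 16 genes passed the test against Vehicle (13 lower and 3 higher), and the Tgfbr2KO_TGFB1 columns held 0 that passed against Tgfbr2KO_Vehicle.

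The change with TGFB1 was then compared between the genotypes, as the change in the knockout cells minus the change in the cells not labelled knockout (the interaction). It passed for 12 of the 30 genes, 11 positive and 1 negative, against 17.6% of all tested genes (8.38% positive and 9.26% negative). The regulators Cebpd (2.47, SE 0.29, adjusted p = 0.000501), Pparg (1.10, adjusted p = 0.00644), Cebpb (0.95, adjusted p = 0.00477) and Klf15 (1.64, adjusted p = 0.0364) were positive. So were the uptake and binding genes Lpl (3.11, adjusted p = 0.00210), Fabp4 (2.88, adjusted p = 0.00834) and Fabp5 (0.83, adjusted p = 0.0234). The remaining positive ones were Elovl6 (1.51, adjusted p = 0.00289), Elovl5 (0.90, adjusted p = 0.0265), Acsl1 (1.02, adjusted p = 0.000401) and Dgat2 (1.24, adjusted p = 0.000920). Pparg reached 1 FPKM in 3 Tgfbr2KO_TGFB1 libraries, 1 Vehicle, 1 Tgfbr2KO_Vehicle and 0 TGFB1 libraries. It thus passed the filter only through Tgfbr2KO_TGFB1, whose high level also enters its positive interaction.

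Plin2 was the negative one (-1.27, SE 0.20, adjusted p = 0.00257): its difference with TGFB1 was -0.27 in the knockout cells and 1.00 in the cells not labelled knockout. Mgll had a larger but less certain interaction of -1.78 (SE 0.61, adjusted p = 0.0701), which passed with the number as a block (adjusted p = 0.00421), as did those of Agpat2, Fads2 and Lipe. The Mgll interaction also passed without Vehicle replicate 1 (adjusted p = 0.0320). With that block the count was 16, 14 positive and 2 negative (of all genes 28.9%, 13.6% positive and 15.4% negative), and with the block within each genotype 17, 14 positive and 3 negative (28.1%, 13.7% and 14.4%), where Acaca was the additional negative one (log2 -0.33, adjusted p = 0.0246, against 0.0993 without a block). Without replicate 2 of every group it was 4, and without replicate 1 of every group it was 7. No share of all tested genes was taken for these fits with libraries left out.

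Single libraries decided 3 of the interaction calls. That of Klf15 was lost without any 1 of 9 libraries, all but Vehicle replicate 2 and Tgfbr2KO_TGFB1 replicates 1 and 2 (adjusted p up to 0.0851), and with no filter on low values. That of Fabp5 was lost without TGFB1 replicate 1 or Tgfbr2KO_TGFB1 replicate 2 (adjusted p up to 0.0603). That of Elovl5 was lost without Vehicle replicate 3, TGFB1 replicate 1 or 3, or Tgfbr2KO_Vehicle replicate 1 (adjusted p up to 0.0636). Without TGFB1 replicate 2, Scd1 and Fads1 were called as well (adjusted p = 0.0377 and 0.0326).

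Under vehicle alone, the knockout cells differed from cells not labelled knockout in 2 genes of the set. Plin2 was at 125, 117 and 120.2 FPKM in Tgfbr2KO_Vehicle, against 80.9, 75.9 and 64.0 FPKM in Vehicle, 1.64-fold higher and without overlap (log2 change 0.71, SE 0.14, adjusted p = 0.0480). Acsl4 was at 39.1, 36.1 and 31.8 FPKM in Tgfbr2KO_Vehicle, against 26.6, 24.9 and 22.5 FPKM in Vehicle, 1.45-fold higher and also without overlap (log2 change 0.51, SE 0.10, adjusted p = 0.0469). These 2 of 30 stand beside 1.24% called among all tested genes (0.522% higher and 0.72% lower).

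Both adjusted p-values are close to the threshold, and each call was lost without any 1 of the Vehicle, TGFB1 or Tgfbr2KO_Vehicle libraries, Plin2 also without Tgfbr2KO_TGFB1 replicate 2 and Acsl4 without Tgfbr2KO_TGFB1 replicate 1 or 2 (adjusted p up to 0.201 for Plin2 and 0.201 for Acsl4). Both were also lost with no filter on low values, without the variance trend and with only these 2 groups fitted. The FPKM ranges did not overlap in 7 of the 30 genes, 4 above and 3 below, against 30.3% of all tested genes (14.8% above and 15.6% below). Epithelial markers were uneven over these libraries, with sums of 65.1, 8.80 and 11.5 FPKM in Tgfbr2KO_Vehicle against 6.17, 9.69 and 7.06 FPKM in Vehicle, led in the first by Krt8 at 25.8 FPKM. Plin2 was at 117 and 120.2 FPKM in Tgfbr2KO_Vehicle replicates 2 and 3, where Krt8 was at 0 and 0.0542 FPKM. The part of epithelial cells in the Plin2 difference was not tested.

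The 2 genes thus had different patterns over the 4 groups. Plin2 averaged 148 ± 5.57 FPKM in TGFB1, 73.6 ± 8.69 in Vehicle, 101 ± 22.05 in Tgfbr2KO_TGFB1 and 120.5 ± 4.16 in Tgfbr2KO_Vehicle, so that Vehicle had the lowest mean. Acsl4 averaged 24.6 ± 1.43 FPKM in TGFB1, 24.7 ± 2.10 in Vehicle, 35.8 ± 4.07 in Tgfbr2KO_TGFB1 and 35.7 ± 3.69 in Tgfbr2KO_Vehicle, differing by genotype and little by treatment. The TGFB1 and the knockout comparisons share the Vehicle libraries, so a low or high Vehicle value moves both.

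**Figure D5:**
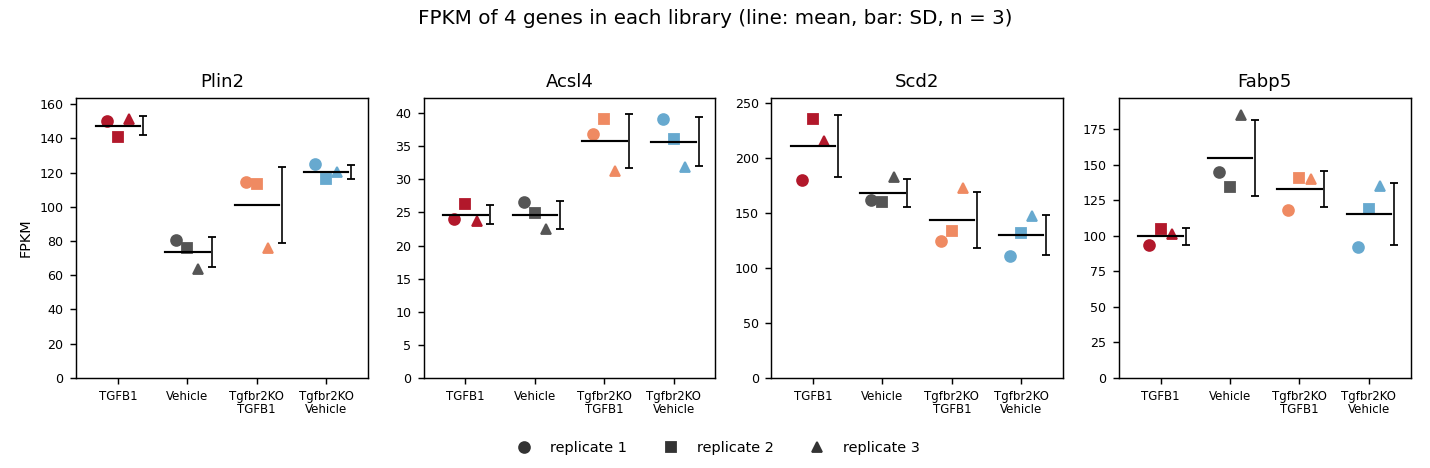
FPKM of Plin2, Acsl4, Scd2 and Fabp5 in each library, with the replicate number as the symbol, the group mean as a line and the SD as a bar (n = 3). Vehicle is the lowest group for Plin2, at 73.6 FPKM on average, and both Tgfbr2KO groups lie above both other groups for Acsl4, at 35.8 and 35.7 FPKM.

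Other genes of the same pathways, taken from lists chosen with earlier results of these data known, were read from the same fit. Of 19 tested adipogenic and lipogenic regulators, 2 were higher and 4 lower with TGFB1 (31.6% called, against 31.9% of all tested genes). Klf4, an early inducer of Cebpb in the mouse 3T3-L1 preadipocyte line, averaged 4.58 ± 0.161 FPKM in TGFB1 and 22.8 ± 0.524 FPKM in Vehicle (SD, n = 3 each, log2 change -2.09, SE 0.15, adjusted p = 8.78e-06). Zfp467, a zinc finger gene that promotes adipocyte over bone cell fate in mouse stromal cells, averaged 2.86 ± 0.216 FPKM in TGFB1 and 7.07 ± 0.580 FPKM in Vehicle (log2 change -1.06, SE 0.16, adjusted p = 0.000857). Klf9, a Krüppel-like factor gene, rose, with 16.7 ± 0.724 FPKM in TGFB1 and 9.48 ± 1.45 FPKM in Vehicle (log2 change 0.76, SE 0.10, adjusted p = 0.000336). The other regulator that rose is not named here. The 2 other regulators that fell, singled out after their values were seen, were Nr1h3, encoding the lipogenic nuclear receptor LXRα, at 0.607, 0.508 and 0.445 FPKM in TGFB1 and 2.80, 2.91 and 3.20 FPKM in Vehicle (log2 change -1.38, SE 0.09, adjusted p = 6.60e-06), and its partner receptor gene Rxra (log2 change -0.64, SE 0.07, adjusted p = 0.000135).

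Of 25 tested genes of fatty acid oxidation, 3 were higher and 4 lower (28% called, against 31.9% of all tested genes). Cpt1a, the gateway enzyme of mitochondrial fatty acid import, was at 9.16, 9.48 and 9.98 FPKM in TGFB1 and 27.5, 25.9 and 27.7 FPKM in Vehicle (log2 change -1.41, SE 0.07, adjusted p = 1.56e-06). The groups lay far apart, while in the knockout cells Cpt1a differed by 0.08 (29.9 ± 2.06 FPKM in Tgfbr2KO_TGFB1 and 28.2 ± 2.38 FPKM in Tgfbr2KO_Vehicle). Acot1, an acyl-CoA thioesterase, fell (log2 change -1.17, SE 0.23, adjusted p = 0.00405) and Acadvl, very long chain acyl-CoA dehydrogenase, rose (log2 change 0.47, SE 0.04, adjusted p = 3.76e-05).

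Of 21 tested further genes of fatty acid and triglyceride synthesis, 5 were higher and 4 lower (42.9% called, against 31.9% of all tested genes), which includes a rise of Lpin3, a relative of Lpin1, with 34.4 ± 4.82 FPKM in TGFB1 and 9.18 ± 2.10 FPKM in Vehicle (log2 change 1.81, SE 0.25, adjusted p = 0.000459). Agpat4, an acyltransferase gene, also rose (log2 change 0.53, SE 0.12, adjusted p = 0.00739), and Slc27a3, of the fatty acid transport protein family, fell (log2 change -1.16, SE 0.16, adjusted p = 0.000545). Of 10 tested droplet and lipolysis regulators, 1 was higher and 1 lower (20% called, against 31.9% of all tested genes). G0s2, which encodes an inhibitor of adipose triglyceride lipase, was at 3.33, 4.62 and 6.60 FPKM in TGFB1 and 13.8, 15.4 and 34.0 FPKM in Vehicle (log2 change -1.84, SE 0.56, adjusted p = 0.03005), a call lost without Vehicle replicate 2 or 3 or TGFB1 replicate 1 or 2 (adjusted p up to 0.103). Angptl4, which encodes an inhibitor of lipoprotein lipase, rose (log2 change 0.49, SE 0.13, adjusted p = 0.0163), a call lost without TGFB1 replicate 1 or 3 (adjusted p up to 0.0632). Without replicate 2 of every group, the calls of Acot1, Agpat4, G0s2 and Angptl4 were lost (adjusted p = 0.0824, 0.114, 0.182 and 0.108). In the knockout cells, 0 genes of these 4 lists passed with TGFB1.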

How the data were processed

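Messenger RNA of 12 libraries was read by sequencing. The authors deposited 1 table of FPKM per gene symbol. Per the submitters' processing notes, kallisto 0.46.1, DESeq2 1.40.1 and the build mm9 were used. How they led to the table, how libraries were scaled and whether counting used strand are not given in the sources used here. Of the 37 genes, 10 overlap a gene on the opposite strand (GENCODE M21), among them Cebpb, Cebpd, Elovl6, Acsl1, Agpat2, Lipe and Mgll. If counting ignored strand, reads from the shared stretches of such pairs cannot be told apart. Acsl3 overlaps Utp14b and Scd2 overlaps Mir5114 on the same strand, where strand does not help.

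The 37 genes and all lists were chosen with earlier results of these data known. Genes named from the other pathway lists are, per list, up to 3 called genes with the largest change and a mean of at least 5 FPKM. Nr1h3 and Rxra were named outside this rule. Group means of log2(FPKM + 1) were fitted with limma 3.58.1 (R 4.3.3) to 12 libraries, with 8 residual degrees of freedom, eBayes with trend and Benjamini-Hochberg adjustment over the 12641 genes that reached 1 FPKM in 3 or more libraries, at a threshold of 0.05. Folds are ratios of mean FPKM. Steps were tested on simulated data. Absolute depth is unknown. For a log2 change between groups the SE had a median of 0.109, and the 95% interval extended by a median of 0.242 each way.

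Replicates 1, 2 and 3 carry the same label numbers in all groups. After subtraction of group means, libraries of 1 number correlated across genes at 0.391, 0.445 and 0.408 between TGFB1 and Vehicle and at 0.588, 0.227 and 0.529 between the Tgfbr2KO groups, and at 0.336, -0.0867 and 0.412 between the vehicle groups. Between the vehicle groups only number 2 did not correlate positively, so these values do not settle whether the numbers pair libraries across genotypes. Pairs were read within a genotype, a choice made from the data. Alternatives were the replicate block, other pseudocounts, filters and scaling, no trend, only the groups compared and leaving out libraries. A block within each genotype was added after seeing the data. Figures used Python 3.11.15 with numpy 2.4.6 and matplotlib 3.10.9.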

Additional observations from a re-analysis of the deposited data

Results flagged for a closer look

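The change with TGFB1 differed between genotypes (change in the knockout cells minus change in the cells not labelled knockout, log2, limma interaction past an adjusted p of 0.05) for 12 genes of the set. Among the regulators it was 1.10 for Pparg, 0.95 for Cebpb, 2.47 for Cebpd and 1.64 for Klf15. Among uptake and binding genes it was 3.11 for Lpl, 2.88 for Fabp4 and 0.83 for Fabp5. It was -1.27 for Plin2, 0.90 for Elovl5, 1.51 for Elovl6, 1.02 for Acsl1 and 1.24 for Dgat2. Among all tested genes 17.6% were called. Pparg was tested only through its level in Tgfbr2KO_TGFB1, which also enters its positive value, so its call is no independent result. The calls of Klf15, Fabp5 and Elovl5 were each lost without single libraries named above.

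Of the other pathway genes named, the difference was 2.17 for Klf4, 0.99 for Zfp467, -0.49 for Klf9, 1.39 for Nr1h3 and 0.55 for Rxra. It was -2.04 for Lpin3, 1.24 for Slc27a3, -0.73 for Agpat4 and 2.59 for G0s2. For the oxidation genes it was 1.49 for Cpt1a, 1.403 for Acot1 and -0.38 for Acadvl. The interaction call of Klf9 was lost without any 1 of 9 libraries (all but replicate 3 of Vehicle, Tgfbr2KO_TGFB1 and Tgfbr2KO_Vehicle). That of G0s2 was also lost without any 1 of 9 (all but Tgfbr2KO_TGFB1 replicates 1 and 3 and Tgfbr2KO_Vehicle replicate 3). Without replicate 2 of every group, the interaction calls of Zfp467, Rxra, Lpin3, Slc27a3, Agpat4, Acot1 and Acadvl were lost too (adjusted p from 0.0871 to 0.163). With single libraries left out, adjusted p reached 0.0880 for Klf9 and 0.110 for G0s2.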

How the results depend on the processing

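Of the 16 TGFB1 calls, 7 (Cebpb, Cebpd, Lpl, Plin2, Elovl6, Acsl1 and Dgat2) held in every alternative in which the gene was tested. So did 3 of the 12 interaction calls (Cebpd, Acsl1 and Dgat2) and neither of the 2 vehicle calls. Acsl1 was not tested with the filter of at least 5 FPKM in at least 3 libraries. The knockout TGFB1 comparison had 0 calls in every alternative. The TGFB1 count kept within 14 to 21 over alternatives that left out no library, with 5 higher under the block within genotypes. The 14 came with the 5 FPKM filter, where the called genes Pparg, Klf15 and Acsl1 were not tested. Of all 9280 genes tested there, 2033 were higher and 1319 lower. The 21 came with the block within genotypes, where 40.4% of all tested genes were called. The interaction count kept within 9 to 17, with 2 negative under the replicate block and 3 under the block within genotypes. The 9 also came with the 5 FPKM filter, without those untested genes, where 812 of all 9280 genes were positive and 1098 negative. The 17 came with the block within genotypes (28.1% of all tested genes). The replicate block changed no call of a gene of the set beyond those named above.

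The vehicle count was 5 with the replicate block (2 higher and 3 lower, against 886 and 1011 of all tested genes), where Fabp5, Fads2 and Scd2 were added as lower. It was 1 at a pseudocount of 0.1 and 0 with no filter, without trend or with only the 2 groups compared, for the higher calls alike. Among all tested genes, 46 were higher and 79 lower at that pseudocount, 26 and 45 with no filter and 44 and 46 without trend. The cause was not tested.

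Leaving out libraries gave 9 to 17 calls with TGFB1 (8 to 14 lower and 1 to 3 higher), 4 to 13 for the interaction (4 to 12 positive and 0 to 2 negative) and 0 to 2 under vehicle (all higher). These counts have no share of all tested genes beside them, so they do not tell the set from other genes. Changes near 0 turned sign. With upper-quartile scaling, TGFB1 minus Vehicle gave -0.0430 for Acly and -0.0451 for Acsl4. Leaving out libraries, TGFB1 minus Vehicle ranged over -0.172 to 0.0904 for Fasn, -0.0584 to 0.0933 for Acly, -0.0281 to 0.150 for Acsl3, -0.0625 to 0.0727 for Acsl4 and -0.206 to 0.00871 for Pnpla2. The knockout comparison ranged over -0.0160 to 0.624 for Lpl, -0.0656 to 0.146 for Dgat2 and -0.00184 to 0.0842 for Acsl1. Genes near 1 FPKM, such as Pparg, Klf15 and Cd36, have levels that the depth limits.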

Other observations

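Level ranks within the set differed between Vehicle and TGFB1. In Vehicle, the highest levels per length were those of Cebpb (248 ± 9.53 FPKM), Scd2 (168 ± 12.8 FPKM), Fabp5 (155 ± 26.8 FPKM) and Cebpd (116 ± 2.07 FPKM). In TGFB1 they were those of Scd2 (211 ± 28.1 FPKM), Plin2 (148 ± 5.57 FPKM), Cebpb (140.0 ± 20.6 FPKM) and Fabp5 (99.7 ± 5.82 FPKM) (SD, n = 3 each).

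The vehicle groups also differed without overlap, though without a call, in 5 genes. With the 2 called genes these make 7 of 30 (23.3%), against 30.3% of all tested genes. Lpin1 averaged 3.79 ± 0.293 FPKM in Tgfbr2KO_Vehicle and 2.82 ± 0.326 FPKM in Vehicle, and Pnpla2 12.4 ± 1.28 FPKM in Tgfbr2KO_Vehicle and 11.0 ± 0.228 FPKM in Vehicle. Scd2 averaged 129.98 ± 18.6 FPKM in Tgfbr2KO_Vehicle and 168 ± 12.8 FPKM in Vehicle, with Fads2 at 53.0 ± 4.87 FPKM in Tgfbr2KO_Vehicle and 64.5 ± 2.48 FPKM in Vehicle, and Cebpb at 217 ± 11.8 FPKM in Tgfbr2KO_Vehicle and 248 ± 9.53 FPKM in Vehicle.

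Replicate 3 of Tgfbr2KO_TGFB1 was the highest library of its group for Cebpd, Cebpb, Pparg, Klf15, Lpl and Fabp4 and the lowest for Plin2. Its values were 174 FPKM for Cebpd, 19.3 FPKM for Lpl, 28.6 FPKM for Fabp4 and 75.7 FPKM for Plin2.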
